A study of Mus musculus with 7 samples.

Results

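The 10 genes described here encode the stress-responsive transcription factor NRF2 (Nfe2l2), its repressor KEAP1 (Keap1) and 8 enzymes or proteins classically placed under NRF2 control: Nqo1, Hmox1, Gclc, Gclm, Srxn1, Txnrd1, G6pdx and Osgin1. They were listed by name as a pathway, with earlier results of these data already known, and were found by symbol among 51426 genes in the count tables, which were joined by Ensembl identifier. All 10 passed the filter on low counts that left 14754 genes for testing. RNA came from livers of male mice, of which 3 were wild type (WT) and 4 carried a whole-body knockout of Tet1 (TET1 KO). TET1 is a dioxygenase that oxidizes 5-methylcytosine in DNA. Every mouse of both genotypes had eaten a high-fat diet (HFD), with 60% of calories from fat, for 16 weeks from 8 weeks of age. The diet is a model of metabolic dysfunction-associated steatotic liver disease, and without a chow-fed group here only the effect of genotype under the HFD could be compared. The sample labels call both genotypes C57BL/6J and the knockout only whole-body. The study describes its sequenced knockout mice as TET1-/-, the name of its germline line, which was obtained as B6;129S4-Tet1tm1.1Jae/J, and sequence linked to the targeted allele was not examined here. The loss of TET1 was in all tissues, so that a difference in the liver need not arise in hepatocytes.

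NRF2 is held in the cytoplasm by KEAP1, which presents it to a CUL3 ubiquitin ligase for degradation. When electrophiles or peroxides modify cysteines of KEAP1, NRF2 accumulates, pairs with small MAF proteins in the nucleus and binds antioxidant response elements near genes of glutathione synthesis, thioredoxin recycling, quinone reduction and NADPH supply. This control acts mainly on NRF2 protein, so the level of Nfe2l2 mRNA is a poor measure of the activity of the pathway. In the liver the pathway is known for its part in drug detoxification and in the defence of hepatocytes against lipid peroxides.

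The letters TGACNNNGC, the core of the antioxidant response element, were searched on both strands of the window from 250 bases before to 50 bases after each RefSeq gene start (GRCm38.p6). Of the 8 genes with a window, 5 held a match, and each match is printed 5′ to 3′ in the direction of its gene with 10 bases on either side and the matching letters in capitals, to show how the copies differ. The match began 240 bases before the start in Nfe2l2 (chr2:75704885-75704913, minus strand), 134 bases before it in Gclm (chr3:122245413-122245441, plus strand) and 57 bases before it in G6pdx (chrX:74428919-74428947, minus strand). It began 92 bases before the second of 3 annotated starts of Txnrd1 (chr10:82859104-82859132, plus strand) and 28 bases after the start of Srxn1 (chr2:152105542-152105570, plus strand).
Nfe2l2: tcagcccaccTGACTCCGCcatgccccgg
Gclm: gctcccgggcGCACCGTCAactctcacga
G6pdx: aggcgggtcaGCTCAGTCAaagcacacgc
Txnrd1: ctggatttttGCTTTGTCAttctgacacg
Srxn1: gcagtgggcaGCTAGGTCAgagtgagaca
In Nfe2l2 the letters lay on the coding strand, and in the other 4 genes they were read on the opposite strand, where the printed run shows their reverse complement. The windows of Keap1, Nqo1 and Osgin1 held no match. The whole 250 bases before the start are shown for Nqo1 (chr8:107403206-107403455, minus strand) and Srxn1 (chr2:152105274-152105523, plus strand), because these genes differed most clearly between the genotypes.
Nqo1: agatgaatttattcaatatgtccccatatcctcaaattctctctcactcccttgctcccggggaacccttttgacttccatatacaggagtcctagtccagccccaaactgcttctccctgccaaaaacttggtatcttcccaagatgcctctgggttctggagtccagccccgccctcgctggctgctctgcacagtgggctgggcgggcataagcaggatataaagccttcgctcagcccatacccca
Srxn1: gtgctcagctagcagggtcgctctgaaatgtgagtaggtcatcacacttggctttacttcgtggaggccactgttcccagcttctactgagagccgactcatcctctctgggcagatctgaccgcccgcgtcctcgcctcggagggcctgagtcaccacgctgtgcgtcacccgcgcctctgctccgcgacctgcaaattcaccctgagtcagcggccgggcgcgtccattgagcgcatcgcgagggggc
The stretch before Nqo1 held 5 CpG dinucleotides, the sites of DNA methylation in mammals, and that before Srxn1 held 21. In the whole windows of 300 bases the counts were 5 and 26, beside a median of 7 over all RefSeq windows.

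The libraries held between 15005277 and 22746138 counts, and levels are given in CPM, the count scaled to library size with TMM factors. The Tet1 transcript had 1 to 4 counts in every library of both genotypes and could not serve as a check of the labels. The first principal component of all tested genes held 48.7% of the variance and separated the genotypes. Of the TET1 KO livers, replicate 4 came closest to WT along it. Hepatocyte markers had the highest sum of the marker lists in every library, at 64100 to 85700 CPM, most of it from Alb (42600 to 63900 CPM). Since the samples were bulk tissue, fewer cells of a type and less RNA per cell cannot be told apart. The labels call the samples replicates without naming the animals. The edgeR and DESeq2 p-values set a difference against the variation between these samples, estimated with information from all genes.

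In TET1 KO livers Nqo1 and Srxn1, which encode enzymes of redox defence, fell to 40.8% and 47.3% of their WT means, and they were the 2 of the 10 genes called by edgeR at an adjusted p under 0.05. Among all 14754 genes 1.15% were called lower and 0.874% were called higher. None of the 10 was called higher, and 1 of them, Osgin1, was higher at an unadjusted p under 0.05, against 13.6% of all tested genes. At that unadjusted limit 7 of the 10 were lower (Nfe2l2, Nqo1, Hmox1, Gclc, Gclm, Srxn1 and Txnrd1), against 12.7% of all tested genes. In 6 of them, all but Nfe2l2, all 4 TET1 KO values were under the lowest WT value, as was the case for 10.8% of all tested genes. DESeq2 called 5 of the 10 lower, adding Hmox1, Gclc and Txnrd1, where its share over all genes with an adjusted p was 4.58%. The median log2 fold change of the 10 genes was -0.50, beside 0.01 over all tested genes.

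**Figure D1:**
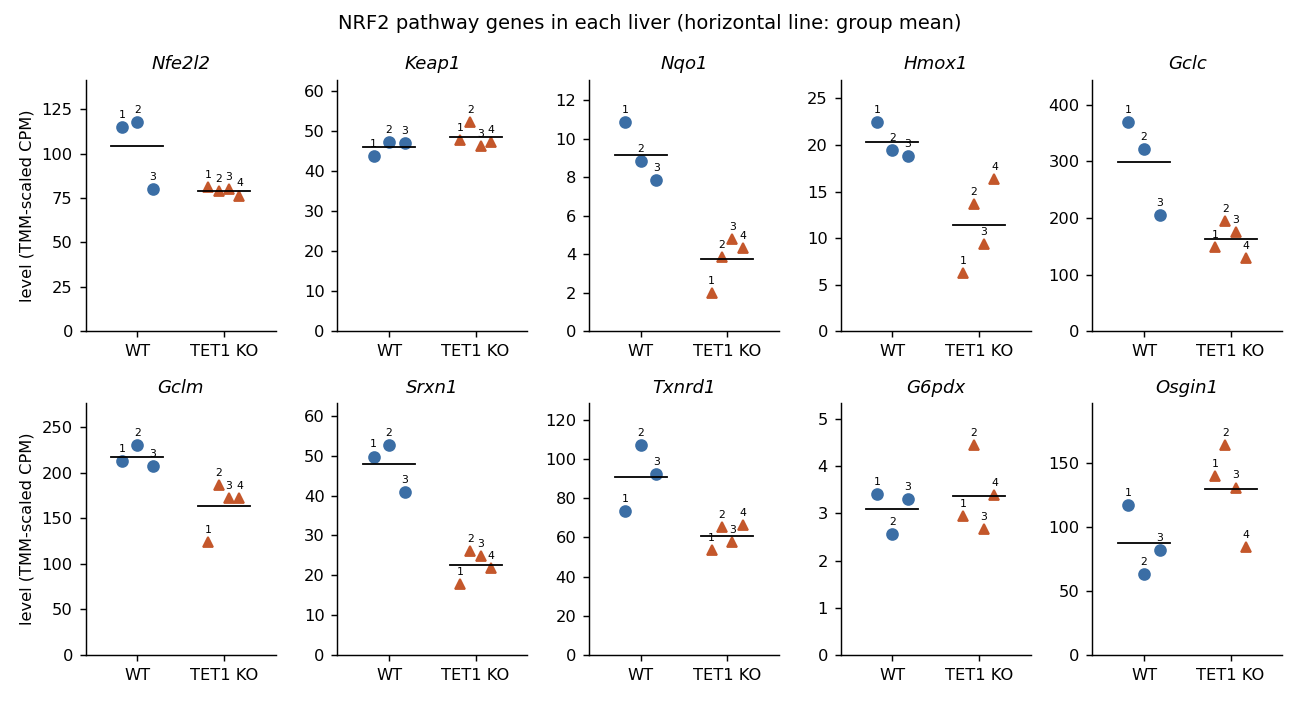
Level of each of the 10 NRF2 pathway genes in TMM-scaled CPM (linear axes from 0) in every liver, with circles for the 3 WT and triangles for the 4 TET1 KO livers, replicate numbers above the points and horizontal lines at the group means. Triangles lie wholly below circles for Nqo1, Hmox1, Gclc, Gclm, Srxn1 and Txnrd1, while WT replicate 3 joins the TET1 KO livers for Nfe2l2.

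NQO1, a cytosolic enzyme that reduces quinones fully to hydroquinones and so keeps them from redox cycling, is among the most used reporters of NRF2 activity. Nqo1 (chromosome 8, 107388225 to 107403205) was measured at 10.9, 8.83 and 7.84 CPM in the WT livers and at 2.00, 3.87, 4.81 and 4.31 CPM in TET1 KO replicates 1 to 4. The genotypes did not overlap, and the highest TET1 KO liver reached 61.3% of the lowest WT liver. The mean level was 9.18 ± 1.55 CPM (SD, n = 3) in WT and 3.75 ± 1.23 CPM (SD, n = 4) in TET1 KO. On the log2 scale the fold change was -1.28 (SE 0.26, 95% interval -1.86 to -0.71, edgeR adjusted p = 0.0374), which ranked 193rd by p among all tested genes. The counts behind it were 32 to 94 reads in TET1 KO and 142 to 221 reads in WT libraries. The call was kept in 3 of 7 fits that each left out 1 liver and was lost without WT replicate 1 (adjusted p = 0.0634), WT replicate 2 (0.149), TET1 KO replicate 2 (0.086) or TET1 KO replicate 3 (0.065), with log2 fold changes from -1.44 to -1.08.

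Srxn1 encodes sulfiredoxin, which repairs peroxiredoxins that have been over-oxidized by peroxide. Srxn1 (chromosome 2, 152105524 to 152111376) stood at 49.8, 52.6 and 41.0 CPM in the WT livers, and at 17.7, 26.1, 24.9 and 21.8 CPM in the TET1 KO livers. All 4 TET1 KO values lay well under the WT values, the highest of them at 63.6% of the lowest WT liver. Its means were 47.8 ± 6.07 CPM (SD, n = 3) in WT and 22.6 ± 3.73 CPM (SD, n = 4) in TET1 KO. A log2 fold change of -1.08 (SE 0.16, 95% interval -1.43 to -0.73) was found, with the smallest adjusted p of the 10 genes (0.0103 in edgeR and 1.02e-06 in DESeq2). It ranked 45th of all tested genes and was called in 6 of the 7 fits without 1 liver, with an adjusted p of 0.0719 when WT replicate 2 was left out.

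GCLC and GCLM are the catalytic and modifier subunits of glutamate-cysteine ligase, the rate-limiting enzyme of glutathione synthesis. Gclc (chromosome 9, 77754535 to 77794489) was at 370, 322 and 206 CPM in the WT livers and at 148, 195, 175 and 130 CPM in the TET1 KO livers. The groups did not overlap, but WT replicate 3 was close to the highest TET1 KO liver, which stood at 95.1% of it. The log2 fold change of Gclc was -0.88 (SE 0.21, 95% interval -1.34 to -0.42), and its adjusted p was 0.0553 in edgeR and 0.00247 in DESeq2. Gclc passed the edgeR test in 1 of 7 fits without 1 liver, the one without WT replicate 3 (-1.11), and in the other 6 its adjusted p was 0.0567 to 0.24. Gclm (chromosome 3, 122245487 to 122267215) was at 213, 230 and 207 CPM in WT and at 124, 186, 172 and 172 CPM in TET1 KO livers. The WT values were tight (217 ± 11.9 CPM, SD, n = 3), and TET1 KO replicate 1 was set apart below the other 3. Gclm differed by a log2 fold change of -0.41 (SE 0.15, 95% interval -0.74 to -0.07) and was called by neither tool (adjusted p = 0.134 in edgeR and 0.0867 in DESeq2). The ratio of Gclm to Gclc reads, set by both subunits, was 0.577, 0.715 and 1.01 in WT and 0.84, 0.953, 0.978 and 1.33 in TET1 KO livers. The groups overlapped, and the difference of 0.44 in mean log2 ratio had p = 0.229 in an exact two-sided permutation test over the 35 divisions of the 7 livers, which allows no p below 0.0286. The difference was 0.25 without WT replicate 1 and 0.65 without WT replicate 3.

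Txnrd1 (chromosome 10, 82833951 to 82897724) encodes the cytosolic thioredoxin reductase, a selenoprotein that passes electrons from NADPH to thioredoxin. Its levels were 73.5, 107 and 92.6 CPM in the WT and 53.8, 65.4, 57.4 and 66.3 CPM in the TET1 KO livers. WT replicate 1 was the lowest WT liver and the highest TET1 KO liver stood at 90.2% of it. Txnrd1 had a log2 fold change of -0.59 (SE 0.15, 95% interval -0.92 to -0.25), which DESeq2 called (adjusted p = 0.0135) and edgeR did not (0.0655). The edgeR test was passed in 1 of 7 fits without 1 liver, the one without WT replicate 1 (-0.73), while the adjusted p was 0.052 to 0.279 in the others and the value was -0.46 without WT replicate 2. Txnrd1 is on the chromosome of Tet1, at a distance of 19.9 Mb, and whether sequence linked to the targeted allele had a part in its level was not tested.

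Hmox1 (chromosome 8, 75093618 to 75100593) encodes heme oxygenase 1, which breaks down heme and is abundant in the macrophages that clear red blood cells. It was at 22.5, 19.5 and 18.8 CPM in the WT livers and at 6.26, 13.7, 9.36 and 16.3 CPM in TET1 KO replicates 1 to 4. The WT livers lay within a narrow range above a wide spread of TET1 KO values. Hmox1 had a log2 fold change of -0.83 (SE 0.27, 95% interval -1.42 to -0.24), called by DESeq2 (adjusted p = 0.0377) but not by edgeR (0.0966). It passed in edgeR in 1 of 7 fits without 1 liver, the one without TET1 KO replicate 4 (-1.06), while the adjusted p was 0.125 to 0.309 in the others and the value was -0.63 without TET1 KO replicate 1. Summed over 8 markers of Kupffer cells and other macrophages, the level was 229, 206 and 338 CPM in WT and 156, 260, 179 and 338 CPM in TET1 KO livers. These sums overlapped between genotypes, none of the 8 markers was called by edgeR or DESeq2 or had an unadjusted edgeR p under 0.05, and none was at 0 in any library. Within the TET1 KO livers Hmox1 had the same order as the macrophage sum, lowest in replicate 1, then 3, then 2, then 4. In the WT livers the order was not shared, since the highest macrophage sum and the lowest Hmox1 were both in replicate 3. Erythroid transcripts also varied, from 777 to 870 CPM in WT and from 219 to 1110 CPM in TET1 KO livers, and they too were lowest in replicate 1 and highest in replicate 4, with replicates 3 (427 CPM) and 2 (488 CPM) between them. In the WT livers the erythroid sum (870, 826 and 777 CPM) had the order of Hmox1 as well. Without TET1 KO replicate 4, the fit in which Hmox1 passed, the globin genes Hbb-bs (-1.63), Hbb-bt (-1.69) and Hba-a2 (-1.10) also passed the edgeR test. The other erythroid genes, Hba-a1 and Alas2, did not pass in that fit. Over the whole table the genes called lower rose in it to 464, from 169 with all livers. The part of macrophages or blood in the Hmox1 difference was not tested.

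**Figure D2:**
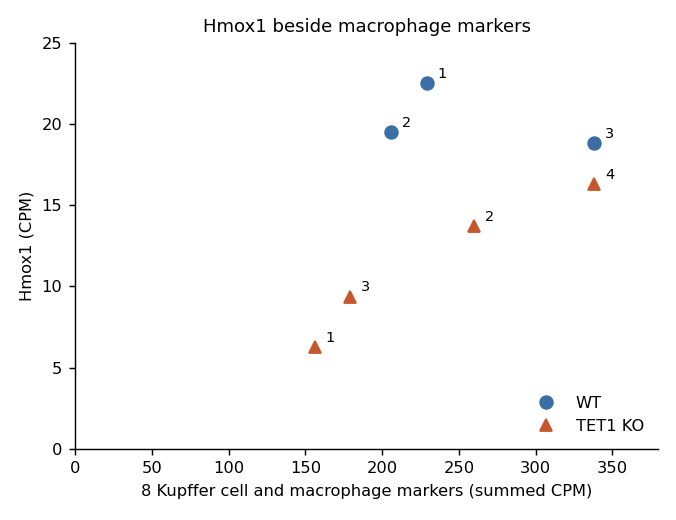
Hmox1 level in CPM (vertical axis) against the summed CPM of 8 Kupffer cell and macrophage markers (horizontal axis), with circles for WT and triangles for TET1 KO livers and replicate numbers beside them. The 4 TET1 KO livers keep 1 order on both axes, and WT replicate 3 and TET1 KO replicate 4, both with a macrophage sum of 338 CPM, have 18.8 and 16.3 CPM of Hmox1.

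The regulators themselves were not called. Nfe2l2 (chromosome 2, 75675513 to 75704663) was at 115, 118 and 79.9 CPM in the WT livers and at 81.3, 78.9, 80.1 and 76.4 CPM in the TET1 KO livers. WT replicates 1 and 2 were high, whereas WT replicate 3 lay among the TET1 KO livers, whose levels were nearly the same (79.2 ± 2.13 CPM, SD, n = 4). The log2 fold change was -0.39 (SE 0.15, 95% interval -0.72 to -0.07, edgeR adjusted p = 0.13). Keap1 (chromosome 9, 21229730 to 21239332) was at 43.7, 47.4 and 47.1 CPM in WT and 47.9, 52.4, 46.4 and 47.4 CPM in TET1 KO livers. These ranges overlapped, and the log2 fold change of 0.07 (SE 0.12, 95% interval -0.18 to 0.33, edgeR adjusted p = 0.702) left room for a difference of either sign. With library size alone as the scaling the Keap1 value was -0.02. The ratio of Nfe2l2 to Keap1 reads was 2.62, 2.48 and 1.7 in WT and 1.7, 1.51, 1.73 and 1.61 in TET1 KO livers, and the mean log2 ratio was lower by 0.45 (exact two-sided permutation test, p = 0.171). In this ratio, too, WT replicate 3 lay among the TET1 KO livers. WT replicate 3 was also the lowest WT liver for 5 of the 6 genes whose genotypes did not overlap.

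G6pdx and Osgin1 did not follow the enzymes described above. G6pdx (chromosome X, 74409483 to 74428880), the first enzyme of the pentose phosphate route to NADPH, was at 3.40, 2.57 and 3.31 CPM in WT and at 2.94, 4.44, 2.66 and 3.39 CPM in TET1 KO livers. These levels rested on 47 to 73 reads a library, and the log2 fold change of 0.11 had a wide interval (SE 0.24, 95% interval -0.41 to 0.64, edgeR adjusted p = 0.778). Its sign turned in 2 of the 7 fits without 1 liver, to -0.01 when WT replicate 2 was left out and to -0.05 when TET1 KO replicate 2 was. Osgin1 (chromosome 8, 119425882 to 119446257), which encodes an oxidative stress-induced growth inhibitor, was at 117, 63.5 and 82.1 CPM in WT and at 140, 164, 131 and 84.6 CPM in TET1 KO livers. TET1 KO replicates 1 to 3 lay above all WT livers, and TET1 KO replicate 4 lay among them. Osgin1 had a log2 fold change of 0.57 (SE 0.24, 95% interval 0.03 to 1.11) and was called by neither edgeR (adjusted p = 0.169) nor DESeq2 (0.145).

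**Figure D3:**
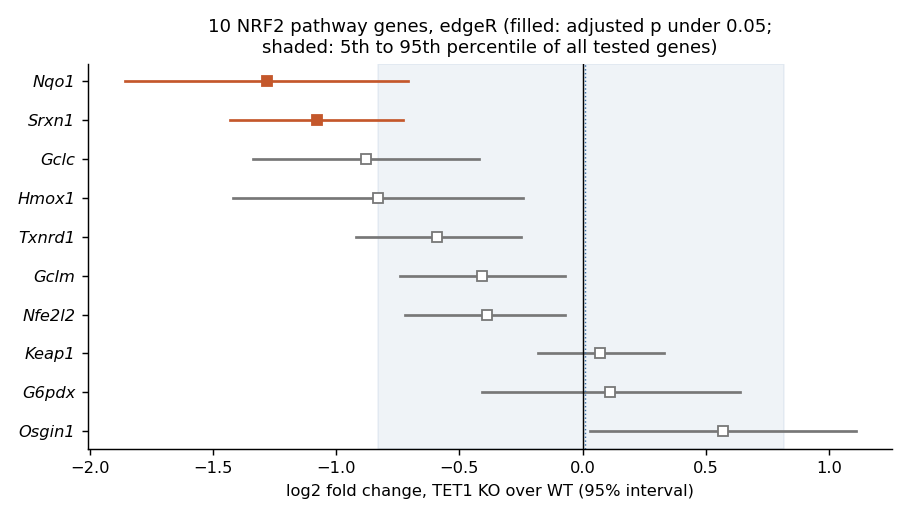
edgeR log2 fold change of TET1 KO over WT livers (horizontal axis) for the 10 genes, with 95% intervals as lines, filled squares at an adjusted p under 0.05 and shading from the 5th to the 95th percentile of all tested genes. Nqo1 (-1.28) and Srxn1 (-1.08) are the filled squares, and the interval of Osgin1 (0.03 to 1.11) lies above 0.

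The genes differed widely in level. Per kilobase of exon, WT livers held 87.4 CPM of Gclc, 42.2 of Gclm, 32.8 of Osgin1, 27.4 of Nfe2l2 and 22.7 of Txnrd1. Srxn1 followed with 17.0, Keap1 with 10.3, Hmox1 with 9.38, Nqo1 with 5.92 and G6pdx with 1.00 CPM per kilobase. The WT ranges of Gclm (40.3 to 44.8) and Osgin1 (23.8 to 43.9) overlapped, as did those of Osgin1 and Nfe2l2 (21.0 to 30.9), of Nfe2l2 and Txnrd1 (18.3 to 26.7), of Txnrd1 and Srxn1 (14.5 to 18.7), and of Keap1 (9.78 to 10.6) and Hmox1 (8.71 to 10.4). Of the 2 called genes, Srxn1 was in the middle of this order, and Nqo1 was scarce in WT livers as well.

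The TET1 KO livers were not alike in the size of the difference. Over the 6 genes whose genotypes did not overlap, the mean log2 distance from the WT mean was -1.32 in TET1 KO replicate 1, beside -0.67, -0.79 and -0.76 in replicates 2 to 4. Replicate 1 was the lowest TET1 KO liver in 5 of these 6 genes, all but Gclc, for which replicate 4 was lowest. Replicate 1 was also the liver farthest from WT on the first principal component of all genes. Without replicate 1 both Nqo1 and Srxn1 were still called by edgeR. In contrast, neither was called without WT replicate 2, and the number of genes called lower over the whole table then dropped to 21 from 169.

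**Figure D4:**
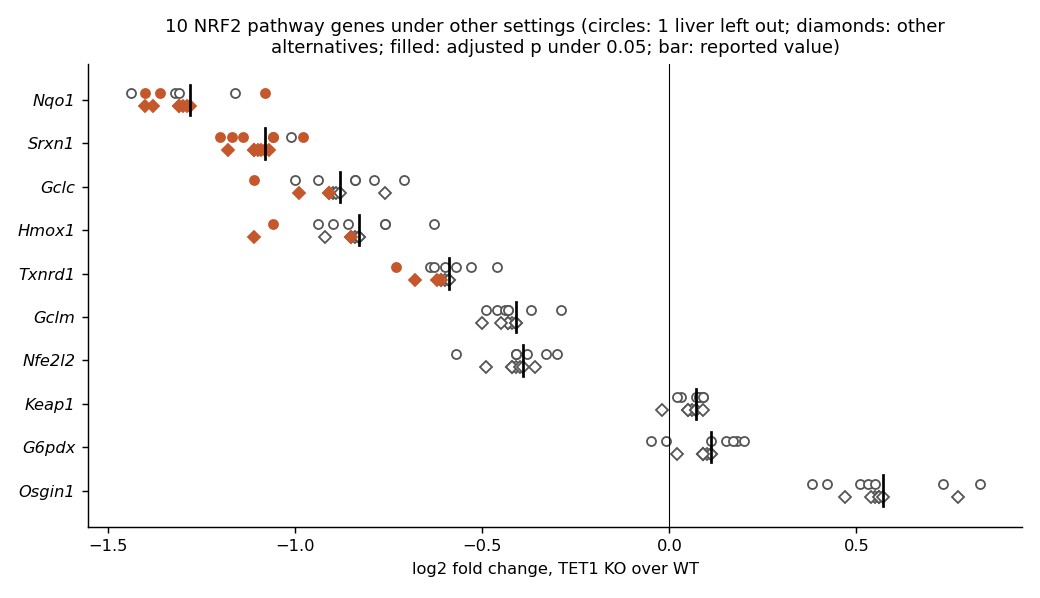
Log2 fold change of TET1 KO over WT (horizontal axis) for the 10 genes under each alternative, with circles for fits without 1 liver, diamonds for other tools, scalings and filters, filled symbols at an adjusted p under 0.05 and black bars at the reported value. Nqo1, Srxn1, Gclc, Hmox1, Txnrd1, Gclm and Nfe2l2 stay below 0 in every fit, Osgin1 stays above 0, and Keap1 and G6pdx lie on either side.

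Close relatives of the 10 genes that were not chosen for the NRF2 lists were compared. Of 9 such paralogs 7 were tested, none was called by edgeR or DESeq2, and 1 passed an unadjusted p of 0.05; their median log2 fold change was 0.01. Nqo2, which shares the fold of NQO1 but uses a different electron donor, had a log2 fold change of 0.04, and that of Hmox2, the constitutive heme oxygenase, was 0.01. The mitochondrial thioredoxin reductase Txnrd2 was at 31.4, 31.7 and 29.9 CPM in WT and at 40.7, 36.3, 39.4 and 37.2 CPM in TET1 KO livers. These groups did not overlap, in the direction opposite to Txnrd1, and the log2 fold change of 0.31 (SE 0.12, edgeR adjusted p = 0.131) was not called. Nfe2l1, a related factor of the endoplasmic reticulum, had a log2 fold change of -0.22, Osgin2 one of -0.27, Txnrd3 one of -0.24 and H6pd one of 0.06. Nfe2l3 and G6pd2 were too low to test. G6pd2, a near copy of G6pdx without introns, had at most 1 read a library, and reads that match both genes could not be assigned with certainty. The signs of Nqo2, Hmox2 and H6pd changed when libraries were scaled by size alone (to -0.05, -0.09 and -0.04).

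A wider set of 65 genes of the NRF2 system, in 7 lists, was then read out, of which 63 were tested. edgeR called 7 of them lower and none higher, and DESeq2 called 16 lower, beside 1.15% and 4.58% of all genes lower by these tools. At an unadjusted p under 0.05, 21 of the 63 were lower and 3 higher (12.7% and 13.6% of all tested genes), and the median log2 fold change was -0.27. Of the 7 called genes 6 were among the 20 enzymes of phase I and II detoxification, where the median was -0.77 and 18 of 20 values were negative, as were 48.9% of those of all tested genes. Among these, Gsta1, a glutathione S-transferase, was at 10.2, 3.56 and 0.993 CPM in WT and at 0.188, 0.141, 0.563 and 0.278 CPM in TET1 KO livers (log2 fold change -3.98, SE 0.73, edgeR adjusted p = 0.0246). Its TET1 KO values rested on 3, 2, 11 and 6 reads in replicates 1 to 4, so that its high WT counts carried it past the filter and its fold change is imprecise, and the WT livers ranged widely among themselves, with replicate 3 nearest to TET1 KO. Without WT replicate 1 its log2 fold change was -2.92, and the call was lost without WT replicate 2 or TET1 KO replicate 1, 2 or 3 (adjusted p from 0.0558 to 0.0924). The mu-class transferases Gstm3 and Gstm4 fell by 1.73 (SE 0.31, adjusted p = 0.0224) and 1.21 (SE 0.19, adjusted p = 0.0139) on the log2 scale. Gstm3 lost its call without WT replicate 2 (adjusted p = 0.104), TET1 KO replicate 2 (0.0574) or TET1 KO replicate 3 (0.0735), and Gstm4 without WT replicate 2 (0.0897). Reads of the transferase families may be shared between near-identical members, and the counting could have divided them. Ephx1, the microsomal epoxide hydrolase, was at 455, 552 and 320 CPM in WT and at 132, 163, 179 and 209 CPM in TET1 KO livers (log2 fold change -1.37, SE 0.21, edgeR adjusted p = 0.0117, and 0.0719 without WT replicate 2). Ugdh, which makes the UDP-glucuronic acid used in glucuronidation, was at 211, 190 and 142 CPM in WT and at 72.5, 88.1, 85.4 and 84.9 CPM in TET1 KO livers. Ugdh was called in all 7 fits without 1 liver (log2 fold change -1.13, SE 0.15, edgeR adjusted p = 0.00736). Ugt2b35, a glucuronosyltransferase, was the sixth, with a log2 fold change of -0.72 (SE 0.14, edgeR adjusted p = 0.0357). Its call was kept in 2 of 7 fits, those without TET1 KO replicate 1 or 4, and the adjusted p was 0.0508 to 0.153 in the others.

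The remaining called gene was Me1, the cytosolic malic enzyme, which yields NADPH for fatty acid synthesis as well as for redox defence. It was at 148, 260 and 105 CPM in WT and at 35.2, 13.8, 16.3 and 58.9 CPM in TET1 KO livers. The groups were far apart, with a log2 fold change of -2.46 (SE 0.46, edgeR adjusted p = 0.0271), and the call was lost without WT replicate 2 (adjusted p = 0.149) or TET1 KO replicate 1 (0.0562), 2 (0.0568) or 3 (0.0735), and with robust dispersions (0.0765). In the pentose phosphate and NADPH list 3 genes were lower and 1 was higher at an unadjusted p under 0.05. Besides Me1, Pgd (-0.56) and Tkt (-0.54) were called lower by DESeq2 (adjusted p = 0.0319 and 0.0355) but not by edgeR (0.0811 and 0.0902). Pgls (0.35, edgeR adjusted p = 0.116) was higher in every TET1 KO liver than in any WT liver.

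The other 5 lists gave no call in edgeR, and DESeq2 called 1 of their genes, Abcc3, lower. Among 10 regulators of NRF2, including Cul3, Bach1, Sqstm1 and the small MAF genes, 1 was lower and 1 higher at an unadjusted p under 0.05, the median log2 fold change was 0.03 and the smallest p belonged to Mafg (0.39, SE 0.14, adjusted p = 0.125). Of 8 genes of glutathione synthesis, reduction and peroxidases 6 were tested, with Slc7a11 and Ggt1 too low, and 3 were lower at an unadjusted p under 0.05 (median -0.28). Glutathione synthetase (Gss), which acts after GCLC and GCLM, was at 92.0, 89.9 and 74.1 CPM in WT and 64.4, 72.3, 64.0 and 68.3 CPM in TET1 KO livers, without overlap (log2 fold change -0.34, SE 0.13, adjusted p = 0.124). The 9 thioredoxin and peroxiredoxin genes had a median of 0.14 and 1 unadjusted p under 0.05 in each direction, and the smallest p was that of the mitochondrial peroxiredoxin Prdx3 (-0.49, SE 0.17, adjusted p = 0.105). For 5 efflux transporters the median was -0.21, with Abcc3 the nearest to a call (-0.86, SE 0.21, adjusted p = 0.059 in edgeR and 0.00438 in DESeq2). For 6 heme and iron genes, none with an unadjusted p under 0.05, it was -0.09, with Fth1 first by p (-0.43, adjusted p = 0.197). None of 4 superoxide and hydrogen peroxide enzymes, which were not chosen as NRF2 targets for the lists, was called either (median -0.10). Sod3 came first by p (-0.39, adjusted p = 0.102, the only unadjusted p under 0.05 of the 4). Sod1 (0.37) and Sod2 (0.05) were higher in every TET1 KO liver than in any WT liver, with adjusted p of 0.197 and 0.781, and the Sod2 value was -0.04 with library size alone as the scaling.

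**Figure D5:**
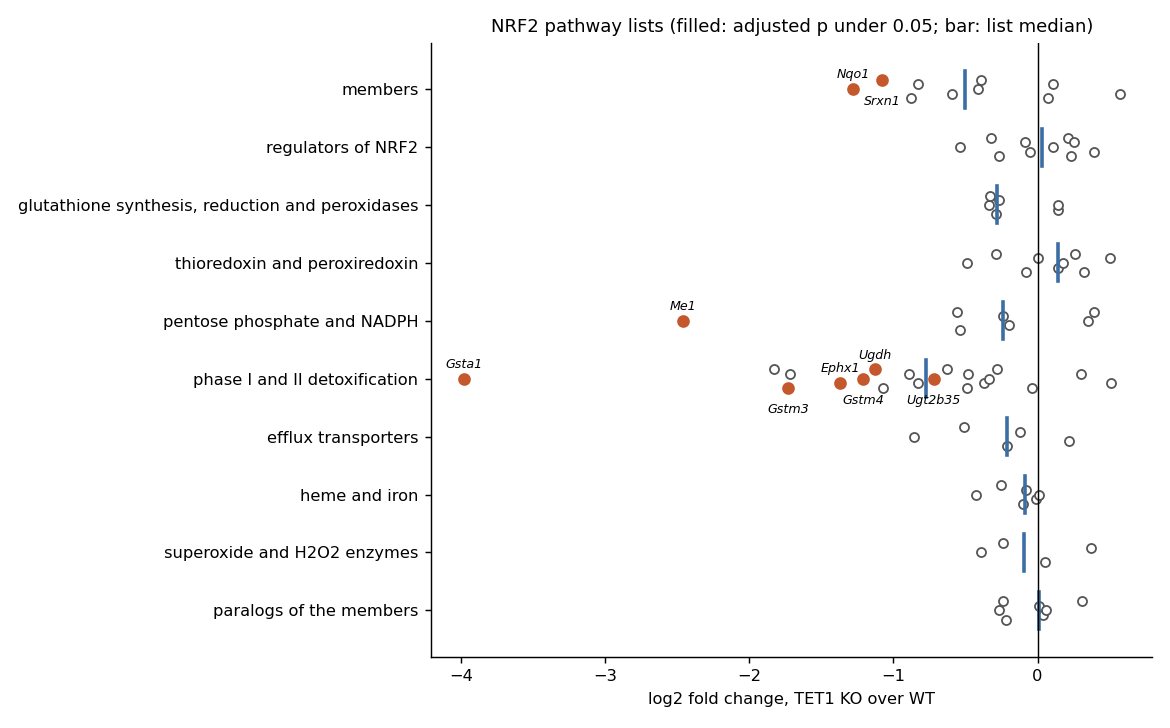
Log2 fold change of TET1 KO over WT (horizontal axis) of every tested gene in the lists (rows), filled where the edgeR adjusted p was under 0.05, with bars at the list medians; the top row holds the 10 genes and the bottom row their paralogs. The filled points are Nqo1, Srxn1, Me1 and 6 detoxification enzymes, all to the left of 0.

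Other cell types were measured beside these differences. The 6 sinusoidal endothelial markers summed to 145 to 147 CPM in WT and 121 to 140 CPM in TET1 KO livers, and the 6 stellate cell and fibroblast markers to 231 to 373 and 206 to 285 CPM. The 5 cholangiocyte markers were higher in sum in TET1 KO livers, at 46.1 to 68.0 CPM beside 29.7 to 37.8 CPM. Most of the sum was Spp1 (mean 24.4 CPM in WT and 36.5 CPM in TET1 KO livers). TET1 KO replicate 4 had the highest Krt19 (6.68 CPM), Krt7 (2.69 CPM) and Epcam (4.87 CPM), but the lowest Sox9 of the TET1 KO livers (9.46 CPM). Sox9 (20.9 CPM), Spp1 (43.7 CPM) and the sum were highest in TET1 KO replicate 2. Of all markers in the 9 lists only Rgs5, a pericyte gene, was called by edgeR (log2 fold change -0.67, adjusted p = 0.046), and that call was kept in 1 of 7 fits, the one without TET1 KO replicate 4. With the replicate number as a block its adjusted p was 0.0548. DESeq2 called 3 stellate cell and fibroblast markers and 1 endothelial marker (Lyve1) lower, and 2 cholangiocyte markers and 1 hepatocyte marker (Apoa1) higher. Apoa1, which encodes the main protein of HDL, had a log2 fold change of 1.10 (adjusted p = 0.0818 in edgeR and 1.73e-06 in DESeq2), and Lyve1 had one of -1.08 (0.0778 and 0.0144). First by p in the other marker lists were Sox9 for cholangiocytes (1.22, edgeR adjusted p = 0.0569), Adgre1 for macrophages (-0.46, 0.238), Alas2 for erythroid cells (-0.46, 0.135), Nkg7 for T and NK cells (1.18, 0.204), Cd79b for B cells (0.88, 0.173) and S100a8 for neutrophils (-1.64, 0.215). T and NK cell markers summed to at most 4.58 CPM, B cell markers to at most 7.04 CPM and neutrophil markers to at most 35.8 CPM. The part of cell composition in the levels of the 10 genes was not tested.

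The genes whose levels ran closest to those of the 2 called genes over the 7 livers were found by the smallest root mean square difference of centred log2 CPM. For Nqo1 these were Aldh3b3 (0.125), Gstm4 (0.188) and Gstm5 (0.202), an aldehyde dehydrogenase and a pair of mu-class glutathione S-transferases. Aldh3b3 had only 23, 21 and 11 reads in WT and 2, 4, 8 and 9 in TET1 KO libraries, so its likeness to Nqo1 is imprecise. It was called by neither edgeR (adjusted p = 0.0961) nor DESeq2 (0.114). Gstm5 was at 9.30, 9.12 and 10.5 CPM in WT and at 1.94, 4.37, 4.25 and 4.45 CPM in TET1 KO livers. For Srxn1 they were the sulfatase gene Arsg (0.092), the nuclear envelope gene Tmem43 (0.118) and Ugdh (0.121). Arsg was at 18.6, 17.7 and 15.1 CPM in WT and at 7.26, 10.6, 9.72 and 8.26 CPM in TET1 KO livers. Likeness to a called gene includes its difference between genotypes, and no test of these pairs was made.

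The printed element core was set beside the changes. A match to TGACNNNGC occurred in 12.4% of all 32851 RefSeq windows and in 14.0% of the genes with a window, beside 5 of 8 of the genes described here and 14 of 57 (24.6%) of the wider set. Of the 2 called genes Srxn1 held a match and Nqo1 did not. Over all tested genes with a window, the median log2 fold change was 0.01 for the 1726 genes with a match and 0.01 for the 8601 genes without one. The share called lower was 1.27% with and 1.23% without a match. Elements farther from the start, and spellings other than these letters, were not searched. Gclc lies on chromosome 9, 0.436 Mb from Gsta1 and 0.397 Mb from Gsta4.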

How the data were processed

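Liver RNA of 3 WT and 4 TET1 KO mice was analysed, grouped by the sample labels. The values are raw read counts per Ensembl gene, deposited by the authors as 1 table per mouse and not normalized. The submitters' processing notes name Trimmomatic 0.36, GSNAP, featureCounts 1.5.3 and GRCm38. The libraries were stranded, but the strand setting of the counting is not given in the sources used here, so overlapping and antisense genes and near-identical paralogs are uncertain. Of 51426 genes 24623 had counts.

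Counts were filtered with filterByExpr, scaled by TMM and tested with edgeR 4.0.16 (quasi-likelihood, R 4.3.3), TET1 KO against WT without covariates. P-values were adjusted by Benjamini-Hochberg over 14754 genes, which held at least 99.88% of each library. No pair of libraries of 1 genotype agreed within sampling noise (lowest chi-square per degree of freedom 27.4). CPM values are TMM-scaled, and log2 CPM for likeness used a prior count of 2. Alternatives were DESeq2 1.42.0, scaling by RLE or by library size only, no filter or a minimum of 10 counts in each library, robust estimates of dispersion, a block for the replicate number, and fits without 1 liver. Ratios were compared by exact permutation tests.

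The 10 genes and all lists were chosen with earlier results of these data known. Named are all 10 genes, their paralogs, every called gene of the other lists, the gene of smallest p in each list, and for each called gene of the 10 the 3 genes nearest to it over the livers. Pgd, Tkt, Pgls, Sod1, Sod2, Alb, Krt19, Krt7, Epcam, Spp1 and the globin genes were named after their values were seen. Coordinates and promoter sequences are from RefSeq (GRCm38.p6), with a window for 8 of the 10 genes. Exon lengths are from GENCODE M1. Figures were drawn with matplotlib 3.10.9.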

Additional observations from a re-analysis of the deposited data

Results flagged for a closer look

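In each group of 4 livers the highest or lowest value was compared with the next by Dixon's ratio, the gap to the nearest liver divided by the whole range, against the 95% critical value for 4 values. Of 66 groups tested 5 passed, where chance alone gives about 1 in 20, or 3.3. Gstm5 in TET1 KO livers had a ratio of 0.917, with 1.94 CPM in replicate 1 beside 4.25 to 4.45 CPM in the others. Nqo2 had a ratio of 0.864, with 75.8 CPM in replicate 1 beside 105 to 109 CPM. Rgs5 had a ratio of 0.898, with 13.7 CPM in replicate 2 beside 16.2 to 16.5 CPM. The cholangiocyte markers Epcam (ratio 0.929, with 4.87 CPM in replicate 4 beside 0.689 to 0.986 CPM) and Krt19 (ratio 0.888, with 6.68 CPM in replicate 4 beside 1.06 to 1.69 CPM) were included after their high values there had been seen. None of the 10 NRF2 pathway genes was set apart in this way.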

How the results depend on the processing

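Of 70 fits of the 10 genes that left out 1 liver, 60 kept direction and side of the threshold, 5 lost a call, 3 gained one and 2 turned sign. Of 70 other fits 61 kept both, 8 gained a call and 1 turned sign. The causes were not tested. Without 1 liver, 0 to 3 of the 10 genes were called lower, as were 1 to 10 of the wider set and 21 to 464 of all genes, with 16 to 427 higher. DESeq2 gave 5 of the 10, 16 of the wider set, and 689 lower and 626 higher of all genes. Library size only gave 4 of the 10 and 312 lower of all genes, and it moved the higher share of calls from 43.3% to 25.5% and the median of all genes to -0.08. No filter gave 11 of the wider set, and 347 lower and 245 higher of all genes. With the replicate block 4 of the 10 were called lower (Hmox1, Nqo1, Srxn1 and Txnrd1), and 656 lower and 671 higher of all genes. TET1 KO replicate 4 has no WT partner and adds nothing to that contrast, and leaving it out without a block already gave 464 lower and 427 higher. The labels do not say whether the replicate numbers pair the livers. The correlations of deviations of equal numbers were 0.21, -0.12 and -0.10, and so few livers cannot settle it. WT replicate 1 correlated best with TET1 KO replicate 1, but WT replicates 2 and 3 did not with their own numbers. Reversed signs were those of Keap1 (-0.02), Nqo2 (-0.05), H6pd (-0.04), Sod2 (-0.04) and Hmox2 (-0.09) under library size only, and Hmox2 also under DESeq2 (-0.02), RLE (-0.01), no filter (-0.02) and the replicate block (-0.01). Without 1 liver, G6pdx ranged from -0.05 to 0.20, H6pd from -0.07 to 0.13, Hmox2 from -0.10 to 0.09, Nqo2 from -0.09 to 0.15, Nfe2l1 from -0.30 to -0.12, Osgin2 from -0.40 to -0.14 and Txnrd3 from -0.41 to 0.02. S100a8, a neutrophil gene, ranged from -2.16 to 0.43, the latter without WT replicate 3. Nqo1 (32 to 221 reads a library) and G6pdx (47 to 73) rested on the fewest reads of the 10 genes, and the part of depth in their precision was not tested.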
